A study of Mus musculus with 4 samples.

Results

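The adenylyl cyclase family comprises the 9 membrane-bound enzymes encoded by Adcy1 to Adcy9, and it was described here in RNA from mouse sciatic nerve. The genes were chosen by symbol, and all 9 were found among the 24062 gene symbols of the count table. All 9 passed the expression filter of 1 CPM (counts scaled to library size) in at least 1 library, as did 14700 genes in all. Each of 4 genotypes on a C57BL/6 strain background was profiled at the age of 4 months with 1 library. WT nerves carried no mutation by their labels. PKO nerves were P2RY14-/-, that is, labelled as null for the receptor gene P2ry14. NF1 nerves were Nf1fl/fl; Dhh Cre, so that floxed Nf1, the gene of the RAS GTPase-activating protein neurofibromin, was deleted where the Desert hedgehog driver acts, chiefly in Schwann cells and their precursors. PKO-NF1 nerves were P2RY14-/- as well, together with the floxed Nf1 alleles (written Nf1fl/f) and Dhh Cre. No library carried Cre or the floxed alleles alone, and other cells of the nerve keep Nf1. The NF1 library is labelled a 4 month repeat, and neither the number nor the sex of the animals behind a library is stated in its labels.

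Membrane adenylyl cyclases convert ATP to cyclic AMP. The stimulatory G protein alpha subunit activates every one of them, and the inhibitory Gi alpha subunits restrain several, so that a Gi-coupled receptor such as P2ry14, the receptor for UDP-sugars, lowers cyclic AMP. In Schwann cells cyclic AMP, raised for example through the adhesion receptor Gpr126 (Adgrg6), promotes differentiation and the expression of myelin genes. The isoforms differ in what else controls them. Adcy1, Adcy3 and Adcy8 respond to calcium and calmodulin, Adcy2, Adcy4 and Adcy7 are stimulated by G protein beta-gamma subunits, Adcy5 and Adcy6 are inhibited by calcium and by Gi, and Adcy9 is insensitive to the activator forskolin.

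The genes lie on 7 chromosomes of GRCm38, and 3 start regions are shown to set members that differed with Nf1 status beside one that differed little with it. RefSeq promoter windows on GRCm38.p6 matched 7 of the 9 members in 10 windows. Adcy6 and Adcy8 had no matched window, and Adcy3 and Adcy7 each had more than 1. The 250 bases before the start site follow for Adcy1, the member that was lowest in both Nf1-deleted libraries relative to their controls (chr11:7063183-7063432, plus strand), for Adcy5 (chr16:35154614-35154863, plus strand), the member nearest to Adcy1 in profile, and for Adcy2, which differed little with Nf1 status (chr13:68999542-68999791, minus strand, printed 5′ to 3′ along the gene). Capitals mark the GC box, GGGCGG, and its reverse complement.
Adcy1: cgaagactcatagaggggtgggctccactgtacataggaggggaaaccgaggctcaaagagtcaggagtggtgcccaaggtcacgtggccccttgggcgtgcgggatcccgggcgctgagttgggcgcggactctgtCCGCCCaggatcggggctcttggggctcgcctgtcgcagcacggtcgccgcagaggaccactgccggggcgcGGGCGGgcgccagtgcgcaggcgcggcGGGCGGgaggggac
Adcy5: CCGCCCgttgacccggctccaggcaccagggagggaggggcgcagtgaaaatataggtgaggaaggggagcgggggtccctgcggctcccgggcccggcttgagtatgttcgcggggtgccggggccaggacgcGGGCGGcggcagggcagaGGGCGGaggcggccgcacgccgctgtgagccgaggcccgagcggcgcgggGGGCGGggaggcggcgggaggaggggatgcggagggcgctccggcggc
Adcy2: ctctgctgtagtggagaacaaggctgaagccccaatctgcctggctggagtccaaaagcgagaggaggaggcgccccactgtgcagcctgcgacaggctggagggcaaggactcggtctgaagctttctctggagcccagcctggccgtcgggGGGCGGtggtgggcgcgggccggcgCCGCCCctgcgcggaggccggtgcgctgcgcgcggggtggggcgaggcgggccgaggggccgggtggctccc
Adcy1 held 3 GC boxes, Adcy5 held 4 and Adcy2 held 2, and the windows had a GC content of 71.2%, 78.0% and 73.2%. A GC box was present in 6 of the 10 windows and in 32.7% of all 32851 RefSeq windows of the same length. The cAMP response element TGACGTCA, a palindrome, was in none of the 10 windows and in 1.55% of all windows. Its half-site TGACG, searched on both strands and contained in the full element, was in 2 of the 10, those of Adcy9 and of the first Adcy7 start, and in 17.8% of all. GC-rich start regions were present both in members that were lower in the Nf1-deleted libraries and in Adcy2, whose Nf1 ratios were near 1. A match describes letters and names no site of binding.

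Total counts lay between 14111201 (WT) and 20362685 (PKO), and 3 counts, the upper limit for a count of 0, came to 0.152 to 0.183 CPM. CPM values were scaled with edgeR TMM factors. With 1 library per genotype every ratio below compares 2 libraries, has no replicate check, and carries a 95% interval for counting error only. P2ry14 was at 37.6 CPM in WT, 10.9 CPM in PKO, 65.3 CPM in NF1 and 10.6 CPM in PKO-NF1. Nf1 was at 72.8, 41.0, 63.4 and 20.5 CPM in that order, and was 1.15-fold below WT in NF1 (1.06 to 1.24); the interval of PKO-NF1 against PKO ran from 1.75-fold to 2.28-fold lower. Whole-gene counts also hold exons outside the floxed part, so they do not by themselves check the deletion. Defining genes of the labelled tissue were present, with 12 of 12 myelinating Schwann cell markers detected in all 4 libraries. Those 12 markers summed to 24780, 35250, 8237 and 18490 CPM in the same order. The NF1 library stood apart in skeletal muscle RNA: 15 muscle markers summed to 57180 CPM there and to 137 to 1005 CPM in the others. In bulk nerve, fewer cells of a type and less RNA per cell cannot be told apart.

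By level per kb of longest transcript, Adcy6 and Adcy1 led the family in WT and PKO, and Adcy6 and Adcy7 in the Nf1-deleted libraries. Scaled to the longest transcript, Adcy1 averaged 13.9 CPM per kb over the 4 libraries (3.96 to 23.0) and Adcy6 averaged 13.7 CPM per kb (6.07 to 23.5). Adcy6 ranked above Adcy1 in WT, NF1 and PKO-NF1, and Adcy1 ranked above Adcy6 in PKO. Next in order of mean length-scaled level came Adcy7 (6.16 CPM per kb), Adcy9 (5.07), Adcy5 (4.82), Adcy4 (3.13), Adcy3 (2.71), Adcy2 (2.42) and Adcy8 (1.18). The ranges over libraries overlapped between all neighbours in that order except the last, since Adcy8 reached 1.87 CPM per kb at most and Adcy2 was never under 1.94. Adcy7 was above Adcy1 in NF1 (7.03 against 6.40 CPM per kb) and in PKO-NF1 (4.29 against 3.96 CPM per kb). That order depended on the length used. By mean transcript length the family shares of Adcy7 and Adcy1 were 14.6% and 14.5% in NF1 and 14.1% and 14.2% in PKO-NF1. By plain counts Adcy1 had the highest share in all 4 libraries.

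**Figure D1:**
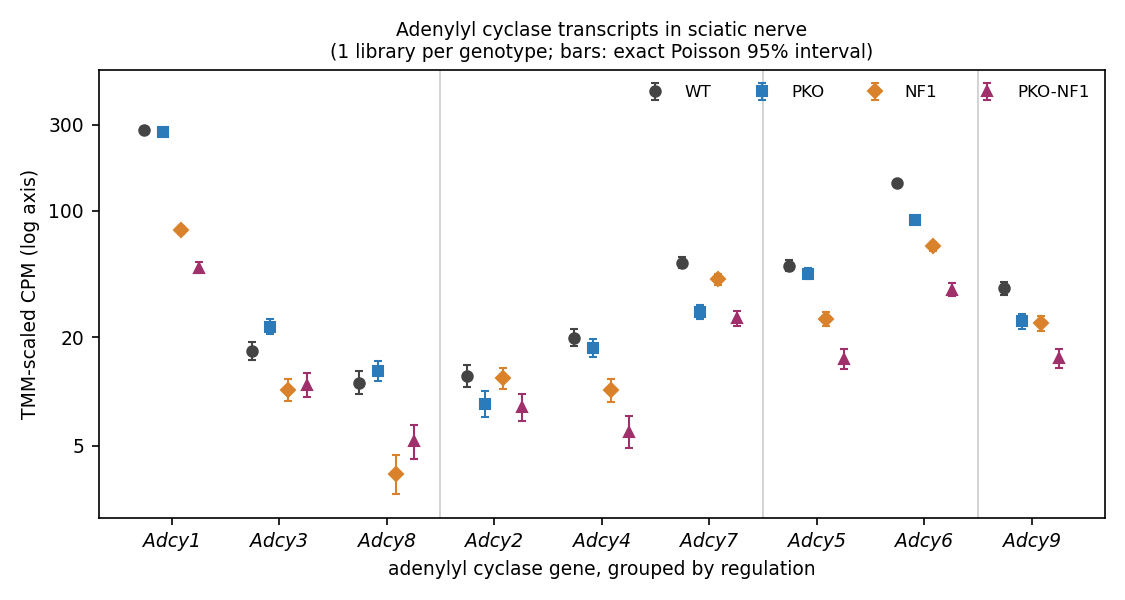
TMM-scaled CPM (log axis) of each adenylyl cyclase in the 4 libraries, 1 point per library with its exact Poisson 95% interval for counting error. Adcy1 lies at 282 and 273 CPM in WT and PKO and at 78.4 and 48.6 CPM in NF1 and PKO-NF1, whereas Adcy2 lies between 8.18 and 12.2 CPM.

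Across genotypes most cyclases were lowest in the Nf1-deleted libraries. Both Nf1-deleted libraries lay below both others for 7 of the 9 members, all except Adcy2 and Adcy7, and for none was the order the reverse. The same complete separation was seen for 20.5% of the 14700 genes in the lower direction and 19.8% in the higher direction. Summed over the family, cyclase transcripts came to 623 CPM in WT, 521 CPM in PKO, 269 CPM in NF1 and 171 CPM in PKO-NF1. The sum was 2.31-fold below WT in NF1 (2.24 to 2.39) and 3.04-fold below PKO in PKO-NF1 (2.91 to 3.17). Without Adcy1 the sums were 341, 248, 190 and 123 CPM, lower in both Nf1-deleted libraries too.

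Of the calmodulin-responsive enzymes, Adcy1 was the member furthest apart. Adcy1, an isoform best known from neurons (chr11:7063489-7178506, plus strand; ENSMUSG00000020431.5), was at 282 CPM in WT, 273 CPM in PKO, 78.4 CPM in NF1 and 48.6 CPM in PKO-NF1. The 2 Nf1-intact libraries were nearly level and the 2 Nf1-deleted libraries were well below them. Adcy1 was 3.59-fold below WT in NF1 (3.39 to 3.81) and 5.62-fold below PKO in PKO-NF1 (5.21 to 6.07). Its share of all cyclase counts was 45.3% in WT (exact binomial 95% interval 44.3 to 46.2) and 52.4% in PKO (51.3 to 53.4), against 29.2% in NF1 (27.9 to 30.4) and 28.3% in PKO-NF1 (26.7 to 30.0).

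Adcy8, another isoform that calmodulin activates (chr15:64697084-64922296, minus strand), was the scarcest member. It was at 11.2 CPM in WT, 13.04 CPM in PKO, 3.50 CPM in NF1 (69 counts) and 5.31 CPM in PKO-NF1 (87 counts). Adcy8 was 3.20-fold below WT in NF1 (2.42 to 4.28) and 2.46-fold below PKO in PKO-NF1 (1.91 to 3.18). Adcy3, the cyclase of olfactory and other primary cilia (chr12:4133103-4213525, plus strand), was at 16.8, 22.9, 10.3 and 10.9 CPM in WT, PKO, NF1 and PKO-NF1. It was 1.64-fold lower in NF1 (1.37 to 1.98), below the 2-fold limit, and 2.09-fold lower in PKO-NF1 (1.75 to 2.51; a log2 ratio of -0.99, short of 2-fold, with total counts in place of TMM). Exons of Adcy3 share 1380 bases with Cenpo on the opposite strand. No label says whether counting used strand, so Adcy3 is uncertain to that extent. Cenpo itself was at 4.83 to 7.21 CPM and was highest in NF1.

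The calcium- and Gi-inhibited pair was lower in both Nf1-deleted libraries as well. Adcy6, whose human counterpart has been linked to a congenital contracture syndrome with poor peripheral myelin (chr15:98589973-98610076, minus strand), was at 142 CPM in WT, 89.3 CPM in PKO, 63.8 CPM in NF1 and 36.7 CPM in PKO-NF1. It was 2.23-fold below WT in NF1 (2.08 to 2.39) and 2.44-fold below PKO in PKO-NF1 (2.22 to 2.68). An antisense transcript, Gm29331, shares 605 exonic bases with Adcy6. Adcy5, the main cyclase of striatum and prominent in heart (chr16:35154877-35305738, plus strand), was at 49.7, 44.9, 25.3 and 15.1 CPM. It was 1.96-fold lower in NF1 (1.75 to 2.20) and 2.97-fold lower in PKO-NF1 (2.57 to 3.43).

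The beta-gamma-stimulated enzymes did not share one pattern. Adcy4 (chr14:55769057-55784095, minus strand) was at 19.8 CPM in WT, 17.5 CPM in PKO, 10.2 CPM in NF1 and 5.98 CPM in PKO-NF1, with both Nf1-deleted libraries low. It was 1.95-fold lower in NF1 (1.63 to 2.34) and 2.92-fold lower in PKO-NF1 (2.32 to 3.71). Adcy2 (chr13:68620043-68999541, minus strand) was at 12.2, 8.55, 11.8 and 8.18 CPM, and both of its Nf1 ratios had intervals that included 1 (1.03-fold, 0.853 to 1.25, and 1.05-fold, 0.823 to 1.33, lower, the latter turning to a log2 ratio of 0.01 with total counts in place of TMM). Adcy7, the isoform best known from blood and immune cells (chr8:88272403-88329962, plus strand), was at 51.7 CPM in WT, 27.7 CPM in PKO, 41.8 CPM in NF1 and 25.5 CPM in PKO-NF1. Adcy7 was 1.24-fold lower in NF1 (1.12 to 1.36) and 1.09-fold lower in PKO-NF1, where the interval included 1 (0.952 to 1.24), and both ratios changed sign once length and GC trends were subtracted. The P2ry14-null libraries were the low ones for both Adcy2 and Adcy7. Adcy9, the forskolin-insensitive and broadly expressed isoform (chr16:4287529-4420498, minus strand), was at 37.2, 24.5, 23.9 and 15.3 CPM, and was 1.56-fold lower in NF1 (1.38 to 1.76) and 1.60-fold lower in PKO-NF1 (1.37 to 1.88).

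**Figure D2:**
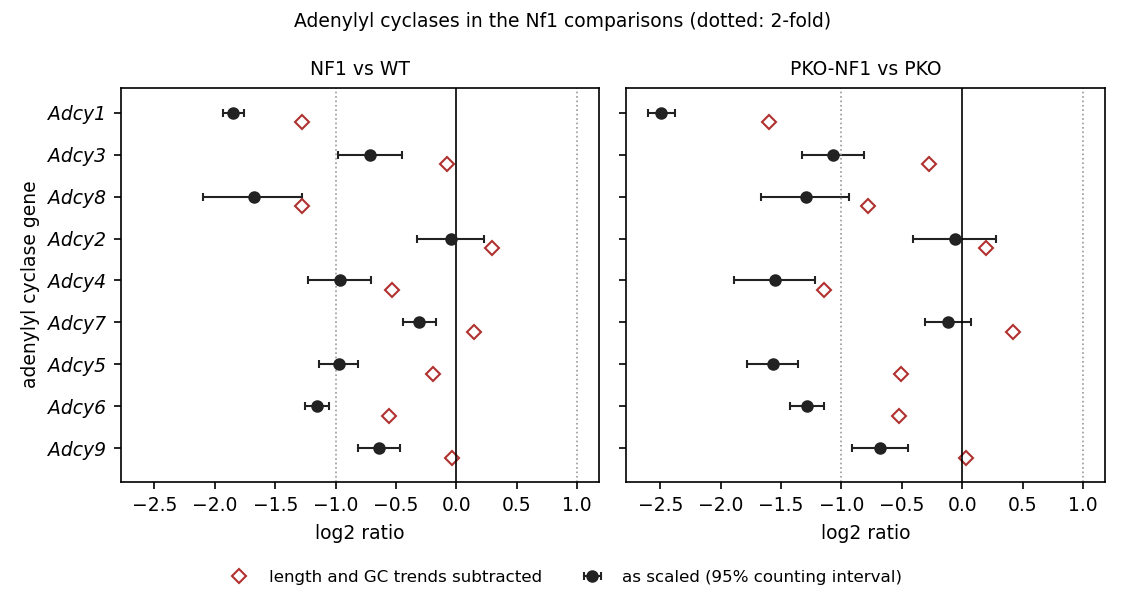
Log2 ratios of each adenylyl cyclase in NF1 vs WT (left) and PKO-NF1 vs PKO (right), with filled points and 95% counting intervals as scaled and open diamonds after subtraction of trends over transcript length and over GC content; dotted lines mark 2-fold. All filled points lie below 0, and the diamonds lie closer to or above 0, with Adcy1 beyond 2-fold in both panels.

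A gene was called where the 2 libraries were 2-fold or more apart with an interval that left out 1. The pair NF1 vs WT holds P2ry14 intact, and PKO-NF1 vs PKO is the P2ry14-null pair. In NF1 vs WT, 3 of the 9 members (Adcy1, Adcy6 and Adcy8) were called lower and 0 higher, against 6.31% of all genes lower and 10.4% higher. The median log2 ratio of the members was -0.97 and that of all genes 0.00. Intervals lay wholly below 1 at any fold for 8 members and above 1 for 0, against 35.2% and 34.2% of genes. In the P2ry14-null pair, which shares no library with the first and has little muscle RNA, 6 of 9 were called lower (Adcy1, Adcy3, Adcy4, Adcy5, Adcy6 and Adcy8) and 0 higher, against 9.7% of all genes lower and 5.2% higher. The medians were -1.28 for the members and -0.01 for all genes, and intervals lay below 1 for 7 members and above 1 for 0 (35.1% and 34.3% of genes). Recomputing the scaling without muscle markers and ribosomal protein genes left 3 and 6 members called.

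Transcript length and GC content moved with these ratios. The longest transcripts of the members ran from 4211 bases (Adcy2) to 12259 bases (Adcy1), against a median of 3352 bases over measured genes, and their GC content ran from 50.8% to 59.5% against a median of 49.7%. Ratios of all genes trended with both properties, and the trend at the members' own length and GC content was between -0.77 and -0.34 in NF1 vs WT and between -1.06 and -0.26 in the P2ry14-null pair on the log2 scale. With the trends subtracted, Adcy1 was at -1.28 and -1.60 in those comparisons and Adcy8 at -1.28 and -0.78. Adcy4 was then at -0.53 and -1.14, Adcy6 at -0.56 and -0.52, Adcy5 at -0.20 and -0.51 and Adcy3 at -0.08 and -0.28. Adcy2 (0.29 and 0.20) and Adcy7 (0.15 and 0.42) changed sign, and Adcy9 was at -0.03 and 0.03. Called lower were then 2 members in NF1 vs WT (Adcy1 and Adcy8) and 2 in PKO-NF1 vs PKO (Adcy1 and Adcy4), against 4.54% and 4.98% of all genes, and the member medians were -0.20 and -0.51. Ribosomal protein transcripts, which are short, also differed between libraries: 12 of them summed to 3571 CPM in WT, 26870 CPM in PKO, 7494 CPM in NF1 and 16050 CPM in PKO-NF1. The part of RNA quality or library make-up in the cyclase ratios was not tested.

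Marker genes of several cell types were also lower in the Nf1-deleted libraries, and their counts are to be set beside the 6.31% and 9.7% of all genes called lower in NF1 vs WT and the P2ry14-null pair. Myelinating Schwann cell markers had 10 of 12 called lower in NF1 vs WT and 7 of 12 in the P2ry14-null pair, with medians of -1.53 and -1.20. Endothelial markers had 7 and 6 of 12 called lower (medians -1.13 and -0.93), and their sum was 820 CPM in WT, 981 CPM in PKO, 348 CPM in NF1 and 588 CPM in PKO-NF1. Adipocyte markers had 9 and 5 of 10 measured genes called lower (medians -1.45 and -0.88), with sums of 6881, 17250, 3679 and 12610 CPM. The Schwann cell lineage list had 1 of 6 called lower in each pair, and 0 and 1 higher (medians -0.68 and 0.01). Pericyte and smooth muscle markers had 2 of 10 called lower in each pair, and 1 and 0 higher (medians -0.31 and -0.67). Perineurial markers had 1 of 6 called lower in each pair and 0 higher (medians -0.17 and -0.30). Macrophage, mast cell and non-myelinating Schwann cell markers did not have negative medians in both pairs. Their medians were 0.05 and 0.17 for macrophage, 0.10 and 0.06 for mast cell and -0.61 and 0.68 for non-myelinating Schwann cell markers. Fibroblast markers had 0 of 8 called in either pair (medians -0.45 and -0.28). Neuron markers had 1 and 0 of 7 measured genes called lower (medians -0.40 and -0.02). Which of these cells the cyclase transcripts came from, and the part of cell make-up in the ratios, was not tested.

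The edgeR quasi-likelihood test of an additive model over the 4 libraries, with a term for each mutation, had 1 residual degree of freedom, the interaction of the mutations. Its p-values measure a term against that interaction and hold no spread among mice. For the Nf1 term 0 of 9 members and 0.0% of 14105 genes passed a Benjamini-Hochberg adjusted p of 0.05. At an unadjusted p under 0.05 there were 7 of 9 members, against 20.9% of all genes. The fitted log2 change of Adcy1 was -2.17 (edgeR adjusted p = 0.168), followed by Adcy8 at -1.48, Adcy5 at -1.27, Adcy4 at -1.25 and Adcy6 at -1.22, each also with an edgeR adjusted p of 0.168. The DESeq2 Wald test with the same terms called 2 of 9 members, Adcy1 (adjusted p = 5.65e-06) and Adcy6 (adjusted p = 0.0364), against 2.28% of genes. With total counts in place of TMM, edgeR called 5 of 9, against 7.7% of genes.

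The Nf1 ratios in the P2ry14-intact and P2ry14-null backgrounds were next compared by subtracting log2(PKO-NF1/PKO) from log2(NF1/WT). This asks whether Nf1 deletion was accompanied by a different cyclase level when P2ry14 was absent. Adcy1 differed by 0.64 (counting interval 0.51 to 0.78), Adcy5 by 0.60 (0.34 to 0.86) and Adcy4 by 0.58 (0.17 to 1.00), the ratio being more negative in the P2ry14-null pair in each case. The intervals of the other 6 members included 0. Since 58.5% of 14566 genes had an interval excluding 0, the 3 of 9 members are a smaller share than that. These values are with TMM scaling. With trends subtracted, with DESeq2 size factors or with total counts, 4 members had an interval excluding 0. With trends subtracted the 2 log2 ratios were -1.28 and -1.60 for Adcy1, -0.20 and -0.51 for Adcy5, and -0.53 and -1.14 for Adcy4.

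With P2ry14 alone disrupted, no cyclase differed by 2-fold. In PKO vs WT 0 of 9 members were called in either direction, against 5.22% of genes lower and 10.0% higher, and the median of the members was -0.18 against -0.08 for all genes. The ratio furthest from 1 was that of Adcy7, 1.87-fold lower in PKO (1.67 to 2.09), followed by Adcy6 (1.59-fold, 1.49 to 1.70), Adcy9 (1.52-fold, 1.35 to 1.72) and Adcy2 (1.43-fold, 1.15 to 1.77), all lower. Adcy3 was 1.36-fold higher (1.17 to 1.59), which turned to a log2 ratio of -0.02 with total counts in place of TMM, a scaling that put the median of all genes at -0.54 and called 3 members lower. Intervals lay below 1 for 5 members and above 1 for 1, against 37.7% and 29.1% of genes. Adcy1, Adcy4 and Adcy8 had intervals that included 1, and the log2 ratios of Adcy1 (-0.05) and Adcy5 (-0.15) turned to 0.50 and 0.35 with the length and GC trends subtracted.

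In PKO-NF1 vs NF1, which asks the same of P2ry14 where Nf1 is deleted, 0 of 9 members were called, against 13.8% of genes lower and 7.9% higher. Here 7 members were 1.45-fold (Adcy2) to 1.74-fold (Adcy6) lower with intervals excluding 1, Adcy8 was 1.52-fold higher (1.09 to 2.11), and Adcy3 was 1.07-fold higher with an interval that included 1 (0.866 to 1.31; a log2 ratio of -0.07 with total counts). Those 7 lower and 1 higher stand against 37.5% and 37.1% of genes. The median of the members was -0.69 and that of all genes -0.01. With the trends subtracted the member median was -0.09, Adcy1 (0.32) and Adcy5 (0.19) turned positive, and Adcy8 was called higher (1.11). Both P2ry14-null libraries lay below both others for 2 of 9 members, Adcy2 and Adcy7, as for 24.4% of all genes, and above both others for 0 (23.4% of genes). The P2ry14 term of the additive model called 0 of 9 members by edgeR (7 genes in all, 0.0496%), with 3 of 9 at an unadjusted p under 0.05 against 25.2% of genes, and 0 of 9 by DESeq2 (5.65% of genes). The summed muscle markers were at 300.4 CPM in PKO-NF1 and 57180 CPM in NF1, and their part in these ratios was not tested.

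**Figure D3:**
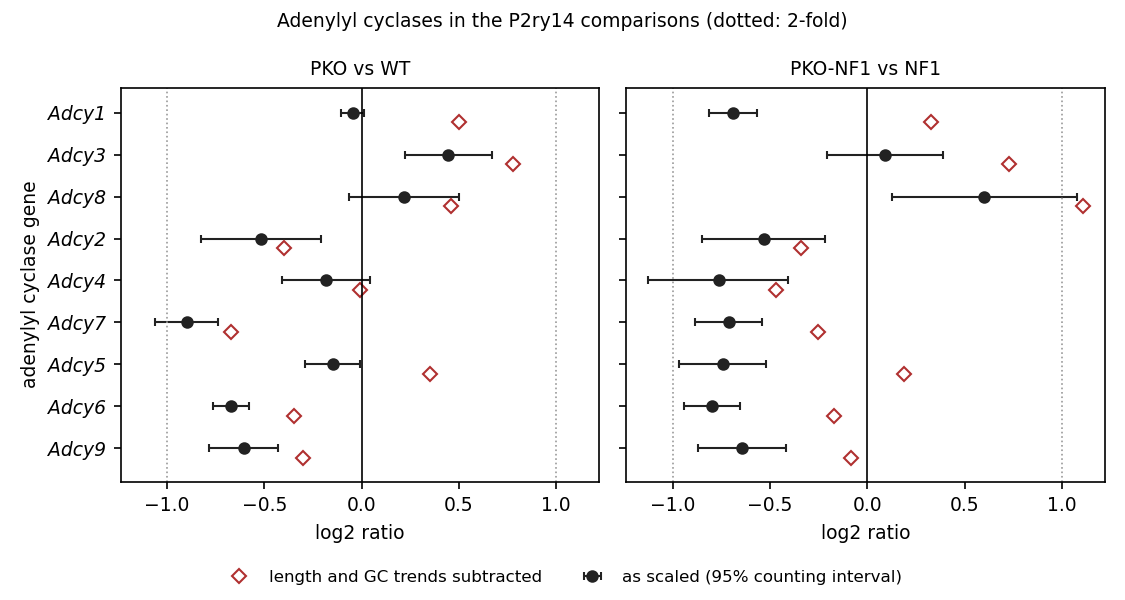
Log2 ratios of each adenylyl cyclase in PKO vs WT (left) and PKO-NF1 vs NF1 (right), drawn as filled points with 95% counting intervals and as open diamonds after subtraction of length and GC trends; dotted lines mark 2-fold. No filled point lies beyond 2-fold, and the Adcy8 diamond at 1.11 on the right does.

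With both mutations combined, PKO-NF1 vs WT, 7 of 9 members were called lower and 0 higher, against 17.5% and 14.7% of genes. Adcy1 was 5.80-fold lower (5.38 to 6.26), Adcy6 3.87-fold (3.54 to 4.24), Adcy4 3.32-fold (2.64 to 4.20) and Adcy5 3.28-fold (2.85 to 3.80), while Adcy2 and Adcy3 did not reach 2-fold. All 9 intervals lay below 1, against 39.1% of genes, and 0 above 1, against 38.7%. This comparison shares its libraries with those above. Subtracting the length and GC trends left 1 of 9 called, Adcy4 at -1.02, and moved Adcy1 to -0.97 and Adcy3 to 0.63.

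The make-up of the family differed between libraries as well as its total. On the length-scaled level, the calmodulin-responsive Adcy1, Adcy3 and Adcy8 made up 33.7% of the family in WT and 43.3% in PKO, against 21.9% in NF1 and 26.0% in PKO-NF1. Within the group only the Adcy1 share was lower in both Nf1 pairs (28.1% against 16.0%, and 34.2% against 15.5%). The share of Adcy3 was higher in both (3.65% against 4.57%, and 6.25% against 7.59%), and that of Adcy8 was 1.96% against 1.26% and 2.87% against 2.97%. The beta-gamma-stimulated Adcy2, Adcy4 and Adcy7 made up 19.8% and 16.6% in WT and PKO and 30.6% and 29.8% in NF1 and PKO-NF1. The calcium- and Gi-inhibited pair Adcy5 and Adcy6 held a share between 32.2% and 37.4% in all 4 libraries. Summed counts of the calmodulin-responsive group were 3.36-fold below WT in NF1 (3.19 to 3.55). Those of the calcium- and Gi-inhibited pair were 2.15-fold (2.03 to 2.28) and those of the beta-gamma group 1.31-fold (1.22 to 1.42) below WT. In PKO-NF1 vs PKO the same 3 groups were 4.77-fold (4.46 to 5.10), 2.59-fold (2.40 to 2.81) and 1.36-fold (1.23 to 1.5) lower. Adcy1 held 4776 of the 5251 counts of the calmodulin-responsive group in WT, so the folds of that group are largely those of Adcy1. The length and GC trends were not subtracted from these shares and folds, and they differed between members. In PKO-NF1 vs PKO the trend was -0.89 for Adcy1, -1.06 for Adcy5 and -0.26 for Adcy2 on the log2 scale.

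**Figure D4:**
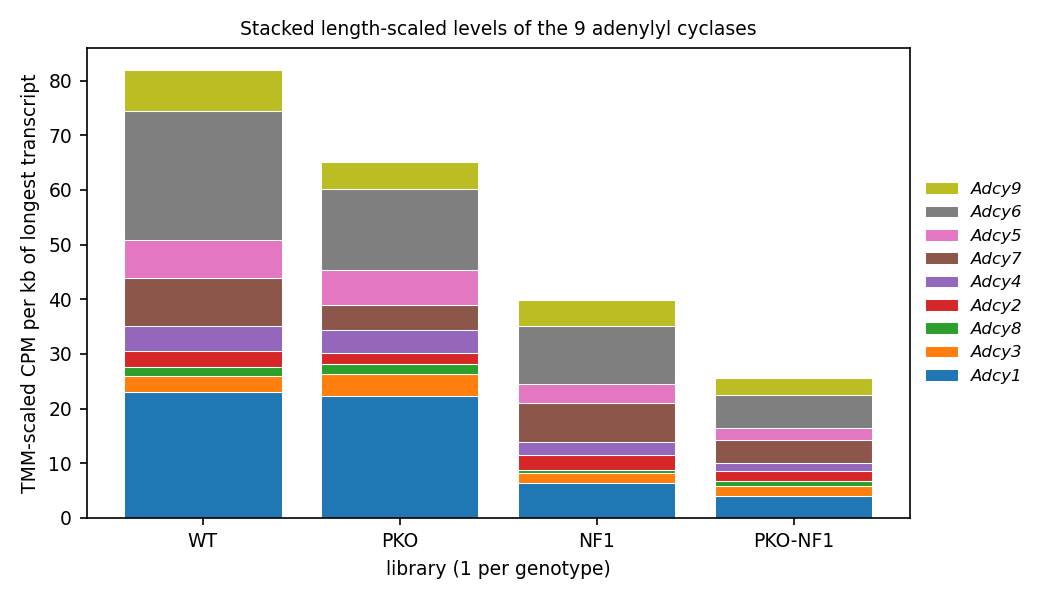
Length-scaled level (TMM-scaled CPM per kb of longest transcript) of the 9 adenylyl cyclases stacked for each library, 1 library per genotype and without error bars. The stack is tallest in WT at 81.9 and lowest in PKO-NF1 at 25.6 CPM per kb, and the Adcy1 share is 28.1% and 34.2% in WT and PKO against 16.0% and 15.5% in NF1 and PKO-NF1.

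Other genes of the cyclic AMP pathway were read from lists. Their counts stand beside 6.31% of all genes called lower and 10.4% higher in NF1 vs WT, and 9.7% lower and 5.2% higher in the P2ry14-null pair. Among 7 G protein alpha subunits that act on the cyclases, 3 were called lower in NF1 vs WT and 2 in the P2ry14-null pair, with 0 higher (medians -0.58 and -0.40). Gnas, the stimulatory subunit and the most abundant of them, was at 758 CPM in WT, 1008 CPM in PKO, 941 CPM in NF1 and 1017 CPM in PKO-NF1 and was not called. Gnal, the olfactory stimulatory subunit, was 4.55-fold (3.27 to 6.43) and 2.17-fold (1.58 to 3.02) lower in the Nf1 pairs. The inhibitory subunit Gnai1 was 2.24-fold lower in NF1 (2.07 to 2.44), and Gnao1 was 2.17-fold (1.73 to 2.72) and 2.30-fold (1.72 to 3.10) lower.

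Receptors upstream of the enzymes were mixed, with calls in both directions. The all-gene shares were again 6.31% lower and 10.4% higher in NF1 vs WT, and 9.7% lower and 5.2% higher in the P2ry14-null pair. Of 30 Gs-coupled receptors 18 were measured, with 1 higher and 3 lower in NF1 vs WT and 2 higher and 3 lower in the P2ry14-null pair (medians 0.00 and 0.08). Adcyap1r1, the receptor for the peptide PACAP and the most abundant, was at 51.7, 50.1, 41.0 and 35.0 CPM in WT, PKO, NF1 and PKO-NF1, and Adrb3, the beta-adrenergic receptor of adipocytes, was 2.63-fold (2.33 to 2.96) and 4.95-fold (4.29 to 5.72) lower. Gpr126, named from outside the rule for its role in Schwann cells, was at 55.1, 32.2, 35.6 and 31.3 CPM and was not called in either Nf1 pair. Of 41 Gi-coupled receptors 24 were measured, with 1 higher and 4 lower in NF1 vs WT and 4 higher and 3 lower in the P2ry14-null pair (medians -0.39 and 0.19). In PKO vs WT the counts were 2 higher and 6 lower, against 10.0% and 5.22% of all genes, the latter including P2ry14 itself and Cx3cr1, the fractalkine receptor of macrophages (2.22-fold, 1.91 to 2.59). Cx3cr1 was at 31.6 CPM in WT, 14.2 CPM in PKO, 71.6 CPM in NF1 and 56.7 CPM in PKO-NF1, so it was highest in the Nf1-deleted libraries. The macrophage marker list that holds it went the other way in PKO vs WT. Its 10 genes had a median of 0.51, with 8 intervals above 1 and 1 below, against 29.1% and 37.7% of all genes.

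Downstream, counts are to be read against those same shares (6.31% lower and 10.4% higher, then 9.7% lower and 5.2% higher). The 15 effectors of cyclic AMP had 1 higher and 1 lower in NF1 vs WT and 1 higher and 4 lower in the P2ry14-null pair (medians -0.24 and -0.22). The coactivator Crtc3, which cyclic AMP signalling sends to the nucleus, was lower in both, by 2.36-fold (2.13 to 2.63) and 3.57-fold (3.13 to 4.07), whereas Prkar1a, the most abundant protein kinase A subunit listed, was called in neither. The 16 phosphodiesterases, which degrade cyclic AMP, had 4 higher and 1 lower in NF1 vs WT and 1 higher and 3 lower in the P2ry14-null pair (medians -0.06 and -0.20). Pde4d was 4.12-fold higher (3.59 to 4.73) and Pde7a 3.59-fold higher (3.26 to 3.96) in the muscle-rich NF1 library, and neither was called in PKO-NF1 vs PKO. Of the 15 measured cyclase scaffolds and regulators 2 were higher in NF1 vs WT, Camk2a and Akap6. In PKO-NF1 vs PKO 1 was lower, Akap6 (medians 0.12 and -0.44). Camk2a was at 3.66 CPM in WT, 2.19 CPM in PKO, 69.3 CPM in the muscle-rich NF1 library and 1.5 CPM in PKO-NF1. Akap6 was at 3.78, 4.16, 11.4 and 1.46 CPM in the same order. The part of muscle RNA in these ratios was not tested.

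**Figure D5:**
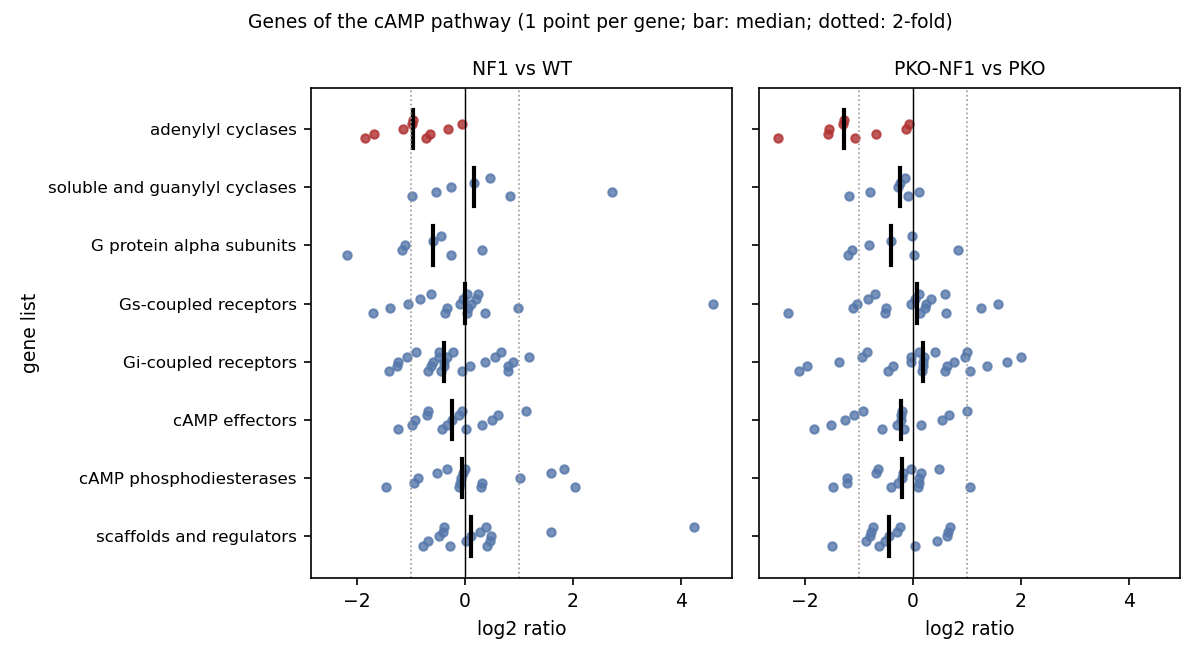
Log2 ratios of the measured genes of 8 cyclic AMP pathway lists in NF1 vs WT (left) and PKO-NF1 vs PKO (right), 1 point per gene with the list median as a bar and 2-fold as dotted lines. The adenylyl cyclases have medians of -0.97 and -1.28, and the medians of the other 7 lists lie between -0.58 and 0.19. With the length and GC trends subtracted, which is not drawn, the cyclase medians were -0.20 and -0.51. Those of the G protein alpha subunits were then -0.51 and -0.46, and those of the soluble and guanylyl cyclases -0.06 and -0.44.

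Genes with the profile most like that of a member were sought among 12447 others by the Euclidean distance of log2 CPM, each gene centred on its own mean over the 4 libraries. For Adcy1 they were Tenm4 (distance 0.19), Shroom3 (0.25) and Nfasc (0.28), the last of which encodes the axoglial adhesion molecule neurofascin and was at 157, 133, 50.4 and 27.7 CPM in WT, PKO, NF1 and PKO-NF1. For Adcy6 they were Fat1 (0.08), Ptpru (0.09) and Pkd1 (0.12), and for Adcy8 Zfp703 (0.06), Sod3 (0.08) and Tspan18 (0.10). The other cyclases were less close: Adcy5 was the nearest to Adcy1 (0.90, rank 122), Adcy4 to Adcy6 (0.35, rank 137) and Adcy3 to Adcy8 (0.72, rank 290). These distances rest on 4 libraries that share their depth and length trends with every gene.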

How the data were processed

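Gene expression was measured by RNA sequencing of sciatic nerve. Per the labels' protocols, RNA was extracted with Trizol from flash-frozen nerve and libraries were made from total RNA with an Illumina TruSeq kit. The authors deposited 1 table of raw counts per gene symbol, and per the submitters' processing notes the tools were featureCounts 1.5.2, HISAT2 2.0.5 and FastQC 0.11.7, with build mm10. No source used here states the annotation, strand use or treatment of shared reads.

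Counts were used as deposited. CPM were computed with edgeR 4.0.16 TMM factors (0.873 to 1.20), and genes at 1 CPM in at least 1 library were kept. Ratios have exact conditional (Clopper-Pearson) 95% intervals; reads amplified by PCR carry no molecular identifiers and are not independent, so these and all other intervals cover counting error only. The additive model used edgeR glmQLFit and glmQLFTest on genes at 1 CPM in at least 2 libraries; DESeq2 1.42.0 was an alternative. Transcript length, GC content and positions came from GENCODE M21 on GRCm38 (22750 symbols matched directly, 958 through RefSeq synonyms, 354 not), and trends were splines with 4 degrees of freedom in each. Level per length used the longest transcript. The calling and model steps were tested on simulated data.

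The members, lists and tests were chosen with earlier results of these data known. The text names all members, P2ry14 and Nf1, the most abundant gene of each pathway list and genes from among the 2 called members per direction with the interval furthest from no change, and the 3 nearest profiles of the 3 members with the widest range. A result that this rule selects is not reported here. In all, 5 list genes were found under an older symbol.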

Additional observations from a re-analysis of the deposited data

How the results depend on the processing

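No paired analysis was possible because each genotype has 1 library, and leaving out a library from the additive model leaves no residual degree of freedom, so that each term becomes the ratio of the remaining pair, with no test; no member term then changed sign. The number of members called lower did not move by more than 1.5 times with DESeq2 size factors, without muscle and ribosomal genes in the scaling, without an expression filter or with a 5 CPM filter. Total counts in place of TMM shifted the median of all genes by -0.22 in NF1 vs WT, -0.54 in PKO vs WT, -0.18 in PKO-NF1 vs NF1 and -0.37 in PKO-NF1 vs WT. Lower calls then numbered 5 members in NF1 vs WT and 3 in PKO vs WT, and all genes split 1581 lower to 1106 higher (927 to 1531 with TMM) and 2727 to 750 (768 to 1474 with TMM); the splits were 2631 to 763 in PKO-NF1 vs NF1 (2031 to 1162 with TMM) and 4122 to 1011 in PKO-NF1 vs WT. A 1.5-fold limit gave 7 members lower in NF1 vs WT (16.7% of genes), 3 in PKO vs WT (15.3%) and 6 in PKO-NF1 vs NF1 (24.1%). Subtracting length and GC trends gave 2 members lower in PKO-NF1 vs PKO (4.98% of genes) and 1 in PKO-NF1 vs WT. In PKO-NF1 vs WT all genes then split 1025 to 820 (2572 to 2154 with TMM alone), and in PKO vs WT the split was 804 to 769. The cause was not tested. For the Nf1 term, edgeR with total counts called 5 members (7.7% of genes) and DESeq2 called 2 (2.28%). For the P2ry14 term edgeR with total counts called 3 members, against 18.6% of genes. The length-scaled Adcy1 share was 28.1%, 34.2%, 16.0% and 15.5% in the order WT, PKO, NF1, PKO-NF1. By mean transcript length it was 24.7% in WT, 30.4% in PKO and 14.5% in NF1, and by plain counts 45.3%, 52.4%, 29.2% and 28.3%.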

Other observations

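Adcy10, the soluble bicarbonate-regulated adenylyl cyclase, had 23 counts in the muscle-rich NF1 library and 3 (WT), 6 (PKO) and 5 (PKO-NF1) in the others, near the detection limit. Of 7 measured soluble and guanylyl cyclases 1 was called higher in NF1 vs WT, Adcy10 (6.59-fold, 1.99 to 34.3), and 1 lower in PKO-NF1 vs PKO, the natriuretic peptide receptor cyclase Npr1 (2.28-fold, 2.06 to 2.53). Over all genes 10.4% were called higher in NF1 vs WT and 9.7% lower in PKO-NF1 vs PKO. Npr1 was at 67.6 CPM in WT, 71.1 CPM in PKO, 34.4 CPM in NF1 and 31.2 CPM in PKO-NF1, with both Nf1-deleted libraries low. Npr2, the receptor cyclase for C-type natriuretic peptide and the most abundant gene of that list, was at 96.4, 66.1, 66.9 and 38.2 CPM in the same order and was called in neither Nf1 pair. Rgs2, a regulator that binds cyclases and G proteins, was 2.42-fold higher in PKO than in WT (2.19 to 2.67), at 33.4 CPM in WT, 80.8 CPM in PKO, 40.5 CPM in NF1 and 125 CPM in PKO-NF1, so that both P2ry14-null libraries were high.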
